A study of Mus musculus with 15 samples.

Results

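The 10 genes described here encode transporters of the canalicular and basolateral membranes of hepatocytes, most of which carry bile acids, phospholipid or conjugated compounds. They were taken by symbol from the authors' deposited table of genotype results, in which each of the 10 stood on 1 of 24965 rows. They are Abcb11, Abcb4, Abcc2 and Atp8b1 of the canalicular membrane, the uptake carrier Slc10a1, and Abcc3, Abcc4, Abcc6, Slc51a and Slc51b, which export from cells across the basolateral membrane. Of these, 9 had an adjusted p, and Slc51a had too few reads for one. The livers came from male C57BL/6J mice, 9 weeks old, and every mouse, controls included, carried floxed alleles of Gata4, the gene of a zinc finger transcription factor. The Gata4LKO mice (Gata4fl/fl; AAV8-Tbg-Cre) had received at 8 weeks a viral vector in which the hepatocyte promoter Tbg drove Cre, while controls (Gata4fl/fl; Empty AAV8) had received an empty vector. Both were killed 7 days later. The comparison set 4 fasted Gata4LKO livers against 4 fasted control livers, after 12 h without food, within a model that also held 3 refed Gata4LKO and 4 refed control livers (12 h fast, then 12 h on a diet with 69% sucrose and 10% fat). Controls had no Cre, so Cre and the genotype label cannot be told apart. The p-values measure the spread between these libraries, and the titles of each group carry a number of their own whose meaning is not given, so that what it marks cannot be told apart from the group either.

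Bile forms when hepatocytes take up bile acids from sinusoidal blood and pump them into the canaliculus between neighbouring cells. Slc10a1 (NTCP) is the sodium-driven uptake carrier, and Abcb11 (the bile salt export pump) moves bile salts into bile. Abcb4 flips phosphatidylcholine into bile, Abcc2 exports conjugated bilirubin and other conjugates, and Atp8b1 keeps the lipid asymmetry of the canalicular membrane. Of the basolateral exporters, Abcc3, Abcc4 and the Slc51a-Slc51b pair return bile acids and conjugates to the blood. They are known from work on cholestasis, the stalling of bile flow, in which they are often raised.

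The table gives, for each gene, 1 mean over all 15 libraries (counts divided by size factors) and a log2 fold change of knockout minus control with its standard error, but no value per liver. The header does not name the compared groups: the estimates equal those of fasted knockout minus fasted control and, just as exactly, those of refed minus fasted controls. The genotype reading was taken from the table's name, and each direction below rests on it. The normalized means of all genes summed to 1.8e+07, and the size factors of the 15 libraries, recovered from genes with a single read, lay between 0.912 and 1.11. Gata4 itself did not pass the test: its log2 fold change was 0.31 ± 0.15 (SE, the authors' deposited table), and the Wald test of DESeq2 gave an adjusted p of 0.361. A count over the whole gene need not show a deletion of part of it, and the genotypes below are those of the labels. RNA of whole liver was measured, so that fewer cells of a type and less RNA per cell cannot be told apart.

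**Figure D1:**
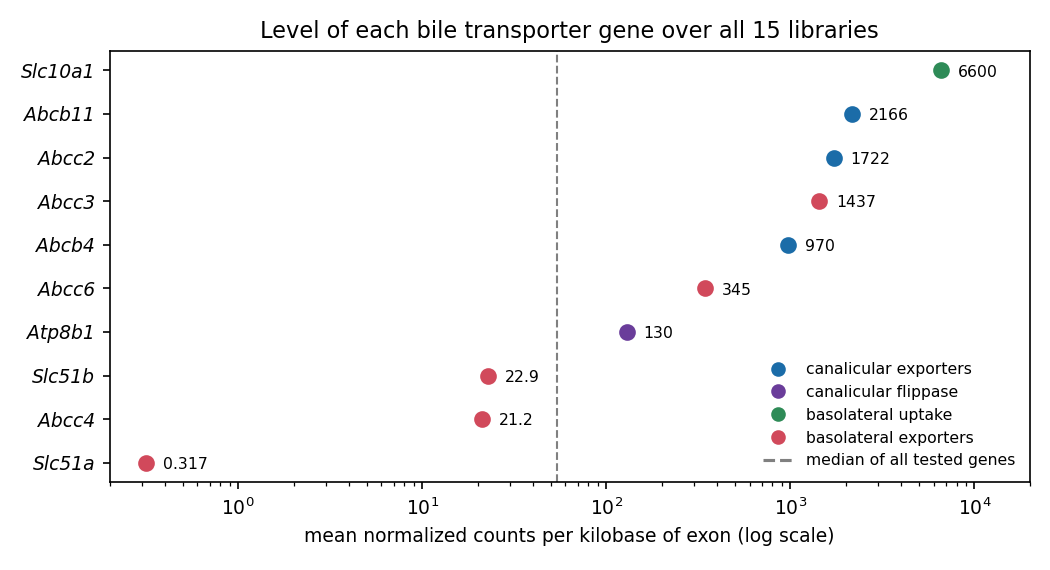
Mean normalized counts per kilobase of exon for each bile transporter gene, over all 15 libraries on a log scale, coloured by role, with the median of all tested genes as a dashed line. Slc10a1 stands highest at 6600 per kilobase and Slc51a lowest at 0.317, and Abcc4 lies below the median of 54.2.

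Levels were compared per length, dividing each deposited mean by the gene's total exon length in GENCODE M21. Slc10a1 was the most abundant at 6600 normalized counts per kilobase, higher than 99.1% of tested genes. Abcb11 followed at 2166, Abcc2 at 1722, Abcc3 at 1437 and Abcb4 at 970 per kilobase. Uptake carrier, canalicular pumps and Abcc3 therefore all lay above 94.9% or more of the tested genes. Abcc6 had 345 and Atp8b1 130 normalized counts per kilobase, also above the median of all tested genes, 54.2. Below that median stood Slc51b at 22.9 and Abcc4 at 21.2 per kilobase, and Slc51a was lowest at 0.317. On this scale Abcc2 was 81.1 times and Abcc3 67.7 times as abundant as Abcc4. These are levels over fasted and refed livers of both genotypes together, and the spread between livers behind them is not in the table.

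Abcc4, the export pump of bile acids, cyclic nucleotides and drug conjugates, was the member that changed. It lies on the minus strand of chromosome 14, from 118482692 to 118706219 (ENSMUSG00000032849, mm10). Its mean was 136 normalized counts and its log2 fold change 1.67 ± 0.24 (SE, the authors' deposited table), which is 3.17 times as much in livers labelled Gata4LKO, with a 95% interval from 2.28 to 4.41 times. The Wald test of DESeq2, adjusted after Benjamini and Hochberg, gave an adjusted p of 7.15e-09. This was the 12th smallest p of 13335 tested genes in the authors' deposited table, and the third highest Wald score among them. Against the 1039 tested genes with a mean within 1.25 times its own, its log2 fold change lay above 99.9% in the authors' deposited table. The rise was larger than its error, although the standard error of Abcc4 exceeded that of 91.7% of the same 1039 genes.

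**Figure D2:**
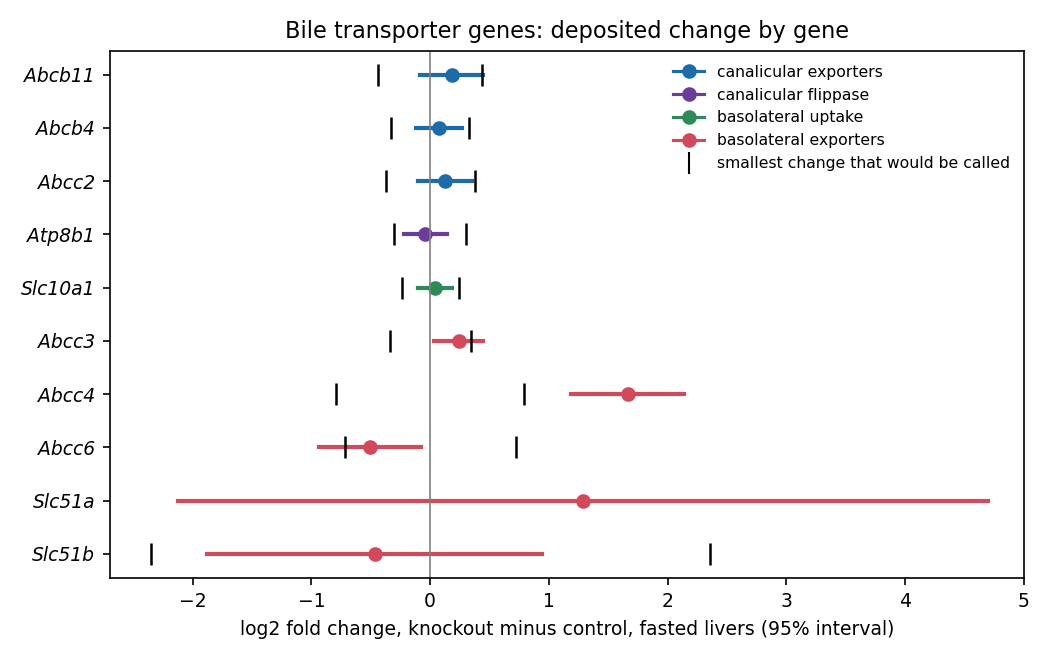
Log2 fold change (knockout minus control, fasted livers) of each bile transporter gene with its 95% interval, coloured by role; black ticks mark the smallest change that would have been called at that gene's standard error. Abcc4, at 1.67, lies past its tick at 0.79, while the points of the other 8 tested genes lie between their ticks.

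None of the tested neighbours of Abcc4 on the chromosome passed. Over all tested genes, 2.19% were called by the DESeq2 Wald test and 11.4% had an unadjusted p under 0.05. Of the 7 other tested genes within 500 kb, 0 were called by the Wald test of DESeq2 and 2 had an unadjusted p under 0.05. Those 2 were Dct, 430 kb away with a log2 fold change of 1.15 ± 0.42 (SE), and the noncoding RNA Gm49768, 277 kb away at -1.31 ± 0.52 (SE), in the authors' deposited table, and they were chosen after their values were seen. Dnajc3, a chaperone gene 232 kb away with a mean of 5774 normalized counts, had a log2 fold change of 0.14 ± 0.13 (SE, the authors' deposited table).

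Promoter windows show which letters stand near the start of the gene that changed and of another ABCC pump that did not pass. RefSeq (GRCm38.p6) windows ran from 250 bases before to 50 after a start. They were used for 7 of the 10 genes: Abcb11, Abcb4, Abcc2, Abcc4, Slc10a1, Slc51a and Slc51b, with a pair of starts each for Abcc4 and Slc10a1. Atp8b1, Abcc3 and Abcc6 were not covered. The windows were searched on both strands for GATAA, a core that GATA factors bind, for TGACNNNGC, the core of the antioxidant response element that the factor NRF2 binds, and for AGGTCA, a half-site of nuclear receptors. Capitals mark the matches to GATAA and TGACNNNGC in the windows of Abcc4, at chr14:118706170-118706469 and chr14:118676882-118677181 (minus strand), and of Abcc2, at chr19:43782058-43782357 (plus strand), each read 5′ to 3′ along the gene.
Abcc4 outer start: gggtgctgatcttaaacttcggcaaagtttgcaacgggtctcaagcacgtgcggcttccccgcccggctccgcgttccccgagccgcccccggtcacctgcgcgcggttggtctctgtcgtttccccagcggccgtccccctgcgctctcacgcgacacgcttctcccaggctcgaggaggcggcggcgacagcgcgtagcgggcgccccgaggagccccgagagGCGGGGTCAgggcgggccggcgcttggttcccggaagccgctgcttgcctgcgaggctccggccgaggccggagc
Abcc4 inner start: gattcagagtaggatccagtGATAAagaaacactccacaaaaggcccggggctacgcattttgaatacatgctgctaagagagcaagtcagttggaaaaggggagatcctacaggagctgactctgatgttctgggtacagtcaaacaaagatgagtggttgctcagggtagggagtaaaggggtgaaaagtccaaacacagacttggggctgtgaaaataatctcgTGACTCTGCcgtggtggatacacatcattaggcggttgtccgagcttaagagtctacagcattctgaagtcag
Abcc2: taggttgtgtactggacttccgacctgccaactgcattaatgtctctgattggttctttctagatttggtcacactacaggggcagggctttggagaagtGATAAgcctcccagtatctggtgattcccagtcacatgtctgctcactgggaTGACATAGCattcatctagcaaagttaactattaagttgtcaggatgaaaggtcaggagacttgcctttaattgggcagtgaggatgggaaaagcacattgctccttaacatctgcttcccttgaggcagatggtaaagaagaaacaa

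The outer window of Abcc4 held no GATAA and 1 match to the antioxidant core, 25 bases before the start. Its inner window held 1 GATAA, 230 bases before that start, and 1 antioxidant core 23 bases before it. The Abcc2 window held 1 of each, 150 and 98 bases before the start. In the 9 bile transporter windows used, GATAA stood in 4, TGACNNNGC in 3 and AGGTCA in 5. Atp8b1, Abcc3 and Abcc6 are not in these counts. Of the 32851 promoter windows of all genes, 25.4% held GATAA, 12.4% TGACNNNGC and 16.3% AGGTCA. The AGGTCA matches, not in capitals, lay before the start by 49 bases in Abcc2, 56 in Abcb11, 58 in Slc51a, 87 in the inner window of Slc10a1 and 203 in Slc51b, and neither window of Abcc4 held one. The other GATAA matches were in Abcb4, 98 bases before the start, and in the outer window of Slc10a1, 32 bases after it. A match is a run of letters, and binding was not measured here.

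The other basolateral ABCC exporters did not pass. Abcc3, which returns glucuronides and bile acids to blood (chromosome 11, 94343295 to 94392997), had a mean of 8189 normalized counts, with a log2 fold change of 0.24 ± 0.10 (SE, the authors' deposited table), with an adjusted p of 0.297 by the DESeq2 Wald test. Abcc6, a hepatocyte exporter whose human counterpart is mutated in the calcification disease pseudoxanthoma elasticum (chromosome 7, 45967555 to 46030302), had a mean of 1976 normalized counts, with a log2 fold change of -0.51 ± 0.22 (SE, the authors' deposited table), with an adjusted p of 0.295 by that test. Both had an unadjusted p under 0.05, 0.0217 for Abcc3 and 0.0214 for Abcc6, with estimates of opposite sign. Their intervals in the authors' deposited table ran from 0.03 to 0.44 for Abcc3 and from -0.94 to -0.08 for Abcc6. Neither interval reached that of Abcc4, from 1.19 to 2.14, though differences between genes were not tested.

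The canalicular exporters had estimates close to 0 with narrow errors. Abcb11 (chromosome 2, 69238282 to 69342616) had a mean of 11145 normalized counts, with a log2 fold change of 0.18 ± 0.13 (SE, the authors' deposited table). Abcc2 (chromosome 19, 43782192 to 43840740) had a mean of 14689 and a log2 fold change of 0.13 ± 0.11 (SE, the authors' deposited table). Abcb4 (chromosome 5, 8893717 to 8959231) had a mean of 9106 and a log2 fold change of 0.07 ± 0.10 (SE, the authors' deposited table). Their adjusted p were 0.694, 0.787 and 0.887 by the DESeq2 Wald test. The interval for the bile salt pump Abcb11 ran from 0.94 to 1.36 times the control level, for Abcc2 from 0.93 to 1.28 times and for Abcb4 from 0.92 to 1.21 times. A rise of 1.35 times or a fall of 26.1% would have been enough for Abcb11 to be called at its standard error. Atp8b1, the flippase gene (chromosome 18, 64528967 to 64661267), had a mean of 870 normalized counts, with a log2 fold change of -0.04 ± 0.09 (SE, the authors' deposited table), with an adjusted p of 0.936 by the DESeq2 Wald test. Its interval ran from 0.86 to 1.10 times the control level.

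Slc10a1, the uptake carrier (chromosome 12, 80953183 to 80968705), was the most precisely measured member. It had a mean of 14514 normalized counts, with a log2 fold change of 0.04 ± 0.07 (SE, the authors' deposited table), with an adjusted p of 0.924 by the DESeq2 Wald test. The interval ran from 0.93 to 1.13 times the control level, and a rise of 1.18 times or a fall of 15.3% would have been called. Its standard error was below that of most genes of like abundance, exceeding 19% of the 63 tested genes with a mean within 1.25 times its own.

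The Slc51a and Slc51b genes encode the obligate partners OSTα and OSTβ, a basolateral exporter best known from the ileum. Slc51b (chromosome 9, 65412714 to 65422955) had a mean of 16.2 normalized counts, with a log2 fold change of -0.47 ± 0.72 (SE, the authors' deposited table), with an adjusted p of 0.906 by the DESeq2 Wald test. Its interval ran from 0.27 to 1.93 times the control level, and a rise of less than 5.12 times would not have been called. Slc51a (chromosome 16, 32474504 to 32487879) had a mean of 1.01 normalized counts. With the size factors known, that mean could be written in 1 way as whole reads: 15 reads in all, with 0 reads in 7 of the 15 libraries, 1 read in 3, 2 reads in 3 and 3 reads in the other 2. The pattern is that of a transcript at the limit of detection at this depth, so that a difference was not detectable, and its log2 fold change of 1.29 ± 1.74 (SE, the authors' deposited table) has an interval from -2.12 to 4.70. Slc51a overlaps Pcyt1a, and Slc51b overlaps Rasl12, both on the opposite strand, and the strand setting of the counting is not given in the sources used here. Noncoding genes or pseudogenes overlap Abcb11 (Gm13613 and Gm13614), Abcb4 (Gm17936), Abcc4 (Gm49033, Gm23302 and Mir6391), Abcc6 (Gm45674) and Atp8b1 (AC102268.1 and AC102268.2). Among those on the strand of the member, Gm17936 had a mean of 31.2 normalized counts against 9106 for Abcb4, and Mir6391 one of 0.127 against 136 for Abcc4. Both genes that overlap Atp8b1 also lie on its strand, and their levels are not given here. How many reads came from those genes was not tested.

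**Figure D3:**
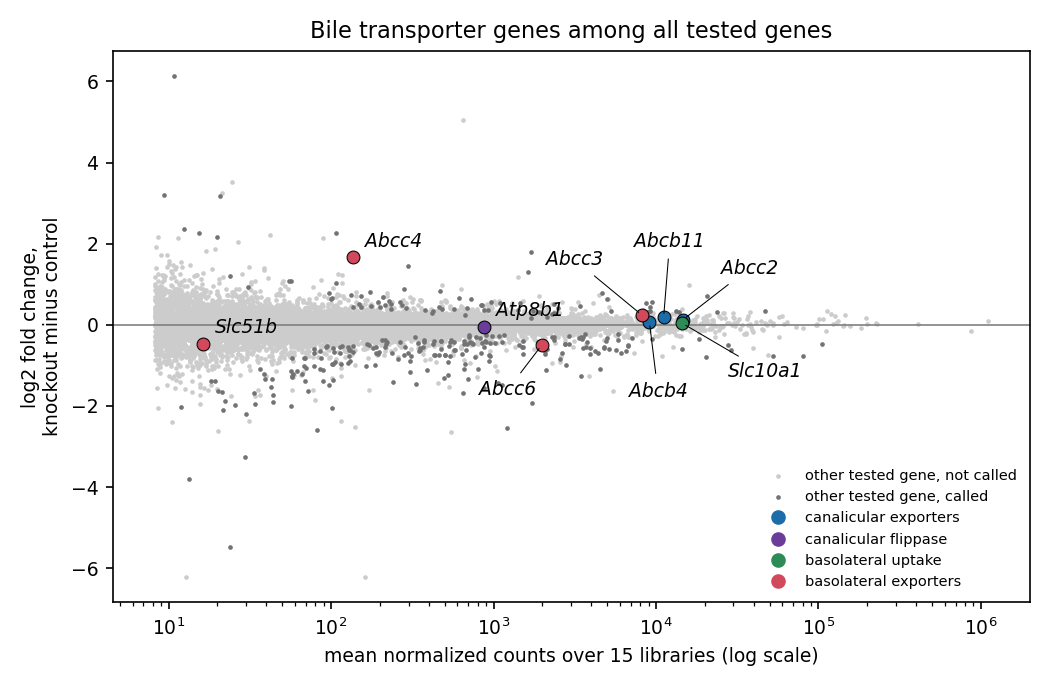
Log2 fold change (knockout minus control, fasted livers) against the mean normalized count over 15 libraries (log axis) for all 13335 tested genes, with called genes in dark grey and the 9 tested bile transporter genes coloured by role. Abcc4 stands above the cloud at 1.67, and the 5 genes with the highest means lie between 0.04 and 0.24.

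Taken over the 9 tested members, 1 was called higher, 0 were called lower and 8 did not pass. Among all tested genes in the authors' deposited table, 2.19% were called, 0.585% higher and 1.60% lower. At an unadjusted p under 0.05 stood 3 of the 9, Abcc4, Abcc3 and Abcc6, against 11.4% of all tested genes. The 9 estimates were positive for 6 genes and negative for 3, with a median of 0.07, beside a median of 0.01 over all tested genes, 51.9% of which had positive estimates. For 6 members, namely the 3 canalicular exporters, Atp8b1, Slc10a1 and Abcc3, the 95% interval lay wholly within 0.5 on the log2 scale to either side of 0.

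**Figure D4:**
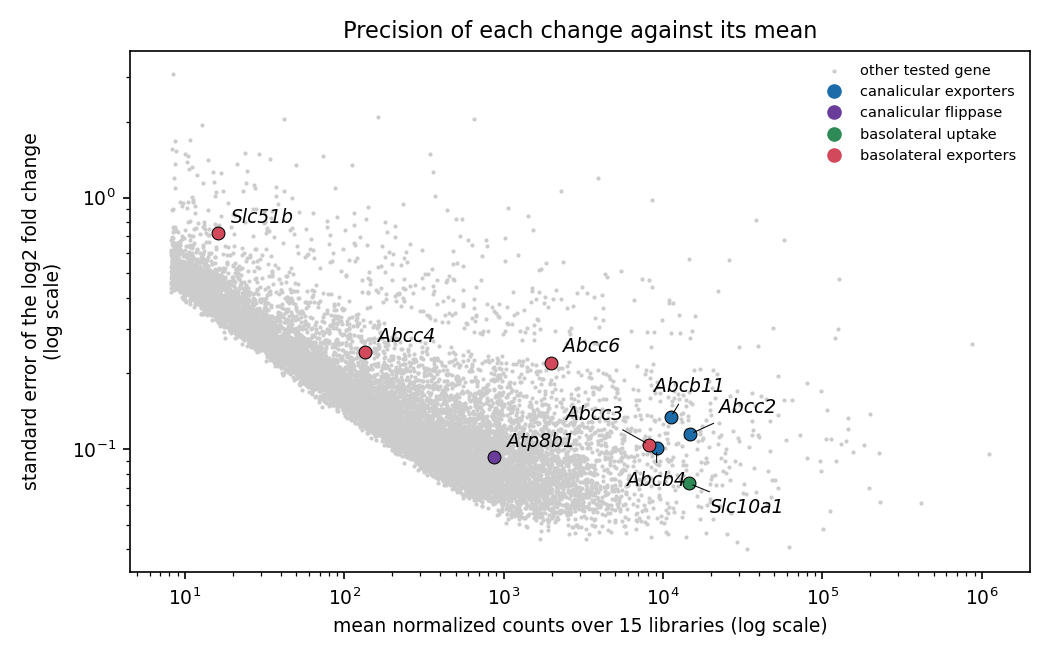
Standard error of the log2 fold change against the mean normalized count over 15 libraries (both on log axes) for all tested genes in grey and the 9 tested bile transporter genes coloured by role. Slc51b, Abcc4 and Abcc6, with standard errors of 0.72, 0.24 and 0.22, lie at the upper edge for their means, while Slc10a1 lies low at 0.07.

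Members also differed in the spread between livers that their standard errors imply, though no value per liver was at hand and these differences were not tested. For the 8 with a mean of at least 100, the standard error was turned into an approximate coefficient of variation between livers, taking 4 livers a side and removing counting noise. It was 7.12% for Slc10a1, 8.44% for Atp8b1, 9.81% for Abcb4, 10.2% for Abcc3, 11.2% for Abcc2 and 13.1% for Abcb11. Abcc6 and Abcc4 had the highest values, at 21.5% and 22.2%. The standard error of Abcc6 exceeded that of 96.8% of the 585 tested genes of like mean, and that of Slc51b exceeded 97% of 775. The authors' model estimates 1 dispersion for all 15 libraries, so these values describe fasted and refed livers together.

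The rest of the transport machinery was read from lists of genes, each by the deposited test of single genes. That test called 2.19% of all tested genes, 0.585% higher and 1.60% lower. Among 7 other canalicular exporters 2 fell, Abcg5 at -0.96 ± 0.15 (SE) and Abcg8 at -0.77 ± 0.18 (SE, the authors' deposited table), which together send sterols into bile. The other 5 did not pass, among them the copper pump Atp7b at -0.19 ± 0.07 (SE) and the drug pump genes Abcb1b and Abcb1a at 0.38 ± 0.41 and 0.12 ± 0.37 (SE, the authors' deposited table). Both Abcb1 genes lie beside Abcb4 on chromosome 5, 27.4 kb and 145 kb from it. Of 9 other basolateral carriers 2 fell, the organic anion transporter Slc22a7 at -1.10 ± 0.26 (SE) and the cholesterol exporter Abca1 at -0.33 ± 0.07 (SE, the authors' deposited table). The bile acid and organic anion uptake genes Slco1b2 and Slco1a1 did not pass, at 0.11 ± 0.11 and 0.10 ± 0.11 (SE, the authors' deposited table).

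Relatives and partners of the members were counted beside the 2.19% of all tested genes that were called and the 11.4% at an unadjusted p under 0.05, and at these list sizes the counts do not set them apart. Of 9 tested further ABCB and ABCC genes 0 were called by the Wald test of DESeq2 and 0 had an unadjusted p under 0.05, with a median of -0.02. Of 15 genes of flippase function and canalicular trafficking 0 were called by that test and 2 had an unadjusted p under 0.05, with a median of 0.01. Those 2 were Hax1, which binds canalicular ABC transporters, at 0.17 ± 0.08 (SE), and the scaffold gene Pdzk1 at 0.14 ± 0.07 (SE, the authors' deposited table). Tmem30a, the partner subunit of Atp8b1, had a log2 fold change of 0.06 ± 0.09 (SE, the authors' deposited table).

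**Figure D5:**
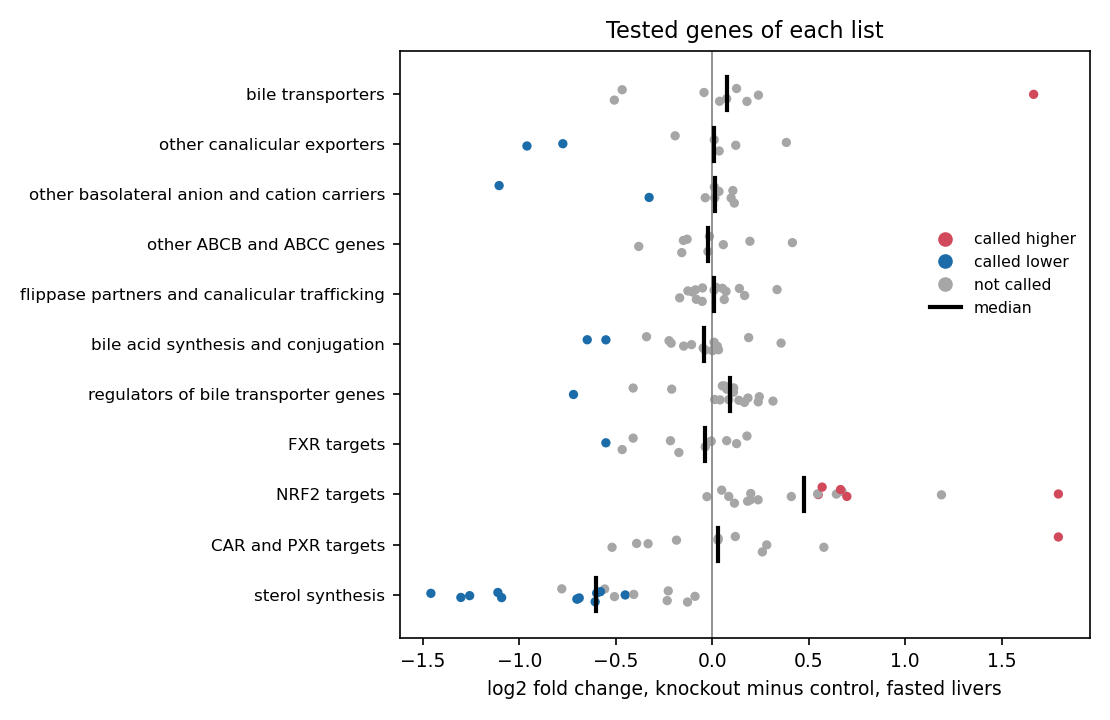
Log2 fold change (knockout minus control, fasted livers) of each tested gene in the bile transporter set and 10 lists of related genes, with medians as black bars, calls higher in red and calls lower in blue. The NRF2 targets have a median of 0.48 and the sterol synthesis genes one of -0.60, and the medians of the other lists lie between -0.04 and 0.09.

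Genes that supply or control the transporters were described in the same way. The shares over all tested genes were 1.60% called lower and 0.585% called higher. Of 16 bile acid synthesis and conjugation genes 2 fell: Cyp2c70, which makes muricholic acids, at -0.65 ± 0.17 (SE), and the amino acid conjugating enzyme gene Baat at -0.55 ± 0.10 (SE, the authors' deposited table). Of 18 tested regulators 1 fell, the GATA cofactor gene Zfpm1 at -0.72 ± 0.16 (SE, the authors' deposited table), while 17 did not pass. The bile acid receptor gene Nr1h4 (FXR) stood at 0.09 ± 0.10 (SE) and its target Nr0b2 at -0.41 ± 0.26 (SE, the authors' deposited table). Of 11 tested FXR targets, a list that holds 4 tested members of the transporter set, 1 fell, which was Baat. In the CAR and PXR list 1 of 11 tested genes rose, Gstm3, a gene that the NRF2 list also holds. Cyp2b10, the classical CAR target, did not pass, with a log2 fold change of 0.58 ± 0.69 (SE, the authors' deposited table).

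NRF2 targets were the related list with the most rises, and the list was chosen with earlier results of these data known. Among all tested genes, 0.585% were called higher and 1.60% lower, and 51.9% had positive estimates. Of 18 tested NRF2 targets, 5 rose, 0 fell and 13 did not pass, with 17 positive estimates and a median of 0.48. The 5 were the glutathione transferase genes Gstm3 at 1.79 ± 0.20, Gstm1 at 0.70 ± 0.12 and Gsta4 at 0.66 ± 0.12 (SE), the epoxide hydrolase gene Ephx1 at 0.57 ± 0.13 (SE), and Srxn1 at 0.55 ± 0.14 (SE, the authors' deposited table). Abcc4 is itself a known NRF2 target. Its log2 fold change was 1.67, and the list ran from -0.03 for Pgd to 1.79 for Gstm3, with a median of 0.48. Of the other ABCC members, Abcc2 stood at 0.13 ± 0.11, Abcc3 at 0.24 ± 0.10 and Abcc6 at -0.51 ± 0.22 (SE, the authors' deposited table). None of them was called, and the Abcc2 window also held an antioxidant core. Whether NRF2 had a part in the rise of Abcc4 was not tested. Reads of near-identical Gstm and Gsta genes may have been shared out between them, so their values are uncertain. Nfe2l2, which encodes NRF2, had a log2 fold change of 0.24 ± 0.14 (SE) and Nqo1, a classical target, one of 0.67 ± 0.21 (SE, the authors' deposited table), and neither passed. Of 20 genes in the sterol synthesis list 12 fell and 0 rose, with a median of -0.60, which was known from these data before the lists were drawn up. Of the 12, Fdps at -1.46 ± 0.24, Mvd at -1.30 ± 0.35, Msmo1 at -1.26 ± 0.20 and Sqle at -1.11 ± 0.19 (SE, the authors' deposited table) had the lowest estimates.

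Markers of the cells that make up the tissue were read beside these values. Hepatocyte markers had means summing to 2.07e+06 normalized counts, and 1 of 15 fell, Apoa1 at -0.48 ± 0.11 (SE, the authors' deposited table), with a median of 0.05. Cholangiocytes, the bile duct cells, also express some of these transporters. Of 10 tested cholangiocyte markers 0 were called by the DESeq2 Wald test and 1 had an unadjusted p under 0.05, with a median of -0.01. Krt19, Epcam and Krt7 had means of 11.9, 13.6 and 7.38 normalized counts and Cftr 2.81. Kupffer cell markers had negative estimates in 13 of 13 (median -0.27), endothelial markers positive ones in 9 of 12 (median 0.23), and stellate cell markers positive ones in 8 of 11 (median 0.12). In each of those lists 0 were called by the DESeq2 Wald test, with 1, 5 and 0 at an unadjusted p under 0.05. Of all tested genes, 2.19% were called by that test, 1.60% lower, and 11.4% had an unadjusted p under 0.05. Positive estimates made up 51.9%. The part of these cells in the Abcc4 result was not tested.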

How the data were processed

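The 15 liver RNA libraries were made, per the labels' protocols, with a stranded KAPA kit. The authors used FastQC, STAR 2.6.0c, mm10 and DESeq2, per the submitters' processing notes. For the counter, its strand setting and the annotation, nothing is given in the sources used here. The deposited expression signal of a gene is its mean of counts divided by size factors, per the file headers. The deposited log2 fold change comes beside a standard error. The deposited Wald score equals their ratio (largest difference 3.64e-14), and the deposited adjusted p-values were found again by Benjamini-Hochberg over the same 13335 genes. A gene was called with an adjusted p under 0.05. Intervals (95%) were computed from the standard errors.

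The header names no groups. Genes with 1 read in 1 of 15 libraries (166 genes) give the size factors, and their estimates fall into sets of 4, 4, 3 and 4 libraries. A negative binomial fit of such genes was computed for 24 readings of the table, and 2 matched within 1e-06; the closest other differed by 4.37e-05. Both are interaction models on all 15 libraries with fasted controls as base: fasted knockout minus fasted control, or, in controls, refed minus fasted. The first was taken, because the table is named for genotype. Pck1 and Fasn, which refeeding lowers and raises, had log2 fold changes of 0.01 ± 0.82 and -0.77 ± 0.18 (SE, the authors' deposited table). Every direction rests on this reading. Slc51a reads came from a search of all whole-number sums that give its mean. The search and the adjustment were checked on simulated data.

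Lengths and positions are from GENCODE M21 (GRCm38, the same assembly as mm10), matched on Ensembl IDs (24944 of 24965). Promoters are from RefSeq. Python 3.11.15, NumPy 2.4.6, SciPy 1.17.1 and pandas 2.3.3 were used. The members and lists were chosen with earlier results of these data known. The rule for named genes was all members and, of each list, every called gene and up to 3 others of smallest p, of which only some are printed; any gene beyond it was chosen after its values were seen. The antioxidant and half-site motifs were added after the values were known.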

Additional observations from a re-analysis of the deposited data

How the results depend on the processing

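The alternatives changed the genes adjusted over (all with a p, or those whose mean reached 10 or 100), the threshold (0.1 or 0.01), the centre (the median of tested genes, 0.01) or the row of a repeated symbol. The calls among members, 1 higher (Abcc4) and 0 lower, were the same under these 7. The repeated-symbol choice could not touch members, which have 1 row each. Nor could any other setting end the Abcc4 call, given its mean of 136 and unadjusted p of 6.85e-12 (DESeq2 Wald test). Its adjusted p lay between 5.16e-09 and 1.34e-08 (DESeq2 Wald test). NRF2 targets called higher numbered 4 to 7 (5 as reported), and sterol synthesis genes called lower 8 to 13 (12 as reported). Counts moved by over 1.5 times in 2 lists: 1 cholangiocyte marker, Aqp1, was called higher at 0.1, and 1 bile acid synthesis gene in place of 2 was called lower at 0.01. No paired analysis was possible because values per sample are not in the table, and leave-one-out fits, edgeR, other size factors, count filters and fits without the refed livers were not run for want of them. Low counts limit Slc51a and Slc51b.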

Other observations

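Slc10a2, the sodium-driven bile acid carrier of the ileum and of bile duct cells, had a mean of 633 normalized counts in liver, while the bile duct markers Krt19 and Epcam had 11.9 and 13.6. Its log2 fold change was -0.05 ± 0.21 (SE, the authors' deposited table), with an adjusted p of 0.974 by the DESeq2 Wald test. Of 8 genes listed for intestine and pancreas it was the 1 with an adjusted p. The cause of this level was not tested.

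The drug pump genes Abcb1a and Abcb1b, which lie beside Abcb4, had means of 34.9 and 13.8 normalized counts, against 9106 for Abcb4. Within 500 kb of Abcb4, 10 other genes were tested, of which 0 were called by the DESeq2 Wald test and 2 had an unadjusted p under 0.05. Around Abcc6, Abcc3 and Abcb11 the same window held 19, 13 and 10 tested genes, of which 0 were called by that test and 1 each had an unadjusted p under 0.05. Over all tested genes, 2.19% were called by that test and 11.4% had an unadjusted p under 0.05.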
